A study of Mus musculus with 15 samples.

Results

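H3K4me3 was mapped in the amygdala of WT adult male mice, F1 hybrids of the strains 129S1/SvImJ and C57BL/6J, by ChIP-seq on nuclei digested with micrococcal nuclease. The series holds 11 H3K4me3 samples and 4 inputs from 4 genotypes (WT, Kmt2a-HET, Kdm5c-KO and DM, the double mutant). Only the WT list was analysed here, a single list of 24162 peak summits for 2 WT mice pooled, so it carries no spread between animals and no test was possible. Among the 24132 summits on chromosomes 1 to 19 and X, 835 lay outside every GENCODE M21 transcript, outside the 3 kb after every transcript end and more than 20 kb from the nearest transcription start site (TSS). These distal intergenic summits made up 3.46% of the list (95% Wilson interval 3.24 to 3.70%). All intervals given for shares, medians and densities are 95% intervals that cover counting error only. As a check of the tissue, a promoter summit was present for 13 of 14 neuronal marker genes, against 1 of 20 marker genes of organs other than brain. The rule uses position alone. The 2 members nearest to the limit lay 20028 and 20056 bp from a TSS and scored 2.84 and 32.6, and the 2 intergenic summits just under it, at 19999 and 19996 bp, scored 211 and 7.95.

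H3K4me3 is laid down on nucleosomes next to active start sites by methyltransferases of the SET1 and MLL family, to which Kmt2a belongs, and is removed by demethylases such as Kdm5c. It is strongest at promoters rich in CpG dinucleotides, whose unmethylated CpGs are bound by CXXC-domain subunits of the methylating complexes. Summits far from any annotated start can mark promoters missing from an annotation, genes read by RNA polymerase III such as tRNA genes, or enhancers, which usually carry H3K4me1 with less H3K4me3. A start annotated in one catalogue may be absent from another, and GENCODE M21 was therefore set beside the RefSeq annotation of the same assembly.

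The range of sequences under these summits is shown by 7 windows of 201 bp centred on the summit, from the GRCm38 reference (plus strand, 5′ to 3′), with every CpG in capitals. The first 4 are the highest-scoring members, at scores of 281, 243, 223 and 217. They hold 8, 11, 11 and 7 CpGs.
chr5:104571696-104571896: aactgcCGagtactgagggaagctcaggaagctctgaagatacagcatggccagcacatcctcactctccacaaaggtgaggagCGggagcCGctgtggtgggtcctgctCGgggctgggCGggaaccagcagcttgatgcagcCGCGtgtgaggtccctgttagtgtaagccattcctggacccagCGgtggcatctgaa
chr14:76152372-76152572: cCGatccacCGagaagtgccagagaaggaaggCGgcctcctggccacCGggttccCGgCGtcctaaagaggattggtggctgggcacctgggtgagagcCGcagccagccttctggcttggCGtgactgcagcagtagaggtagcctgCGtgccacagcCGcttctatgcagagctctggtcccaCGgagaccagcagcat
chr1:74817106-74817306: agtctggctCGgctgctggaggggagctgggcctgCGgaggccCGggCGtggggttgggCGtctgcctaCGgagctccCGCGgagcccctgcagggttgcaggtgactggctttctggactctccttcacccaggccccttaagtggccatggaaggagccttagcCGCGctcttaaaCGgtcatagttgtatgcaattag
chr16:64873746-64873946: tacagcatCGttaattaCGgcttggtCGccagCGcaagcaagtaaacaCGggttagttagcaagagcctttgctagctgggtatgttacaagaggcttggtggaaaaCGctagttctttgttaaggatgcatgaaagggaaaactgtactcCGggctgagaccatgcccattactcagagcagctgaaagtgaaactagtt
The next window is that of the member farthest from any GENCODE TSS (339517 bp), with a score of 3.77 and 9 CpGs.
chr19:15340387-15340587: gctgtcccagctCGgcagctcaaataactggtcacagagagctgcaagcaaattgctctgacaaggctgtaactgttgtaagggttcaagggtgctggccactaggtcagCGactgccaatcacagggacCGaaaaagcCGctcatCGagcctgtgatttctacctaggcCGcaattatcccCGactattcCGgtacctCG
The highest-scoring member whose summit base was repeat-masked (score 121) had 12 CpGs. The highest-scoring member with a ratio of observed to expected CpGs under 0.2 (score 67.05) had none in the window shown. The CpG-poor window comes second.
chr5:142367824-142368024: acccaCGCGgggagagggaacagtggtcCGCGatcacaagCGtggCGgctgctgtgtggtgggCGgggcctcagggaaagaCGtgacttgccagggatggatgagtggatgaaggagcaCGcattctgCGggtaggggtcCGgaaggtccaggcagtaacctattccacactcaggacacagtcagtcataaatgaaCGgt
chrX:102949894-102950094: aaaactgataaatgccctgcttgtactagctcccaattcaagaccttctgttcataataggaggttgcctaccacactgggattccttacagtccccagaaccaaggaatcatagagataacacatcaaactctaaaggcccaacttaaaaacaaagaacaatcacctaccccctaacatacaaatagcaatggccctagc

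The score, taken as the MACS2 q-value on a −log10 scale, was low at most of these summits. The median was 12.9 (interval 11.7 to 14.3), with quartiles of 6.84 and 33.9 and a range of 1.40 to 281, against a median of 102 over the list. A score below 10 was found at 321 of the 835 (38.4%), and 47 (5.63%) reached the median of the list. Intergenic summits within 20 kb of a TSS had a median of 17.1 (15.5 to 18.8) and scored above a distal summit in 55.3% of pairs. Summits in a transcript body over 1 kb from a TSS had a lower median, 9.92 (9.19 to 10.1), and scored above a distal summit in 44.4% of pairs. Summits within 1 kb of a TSS, with a median of 165, did so in 86.0% of pairs. The distal class therefore sat between the other non-promoter classes and far below promoters, with an upper tail inside the promoter range.

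**Figure D1:**
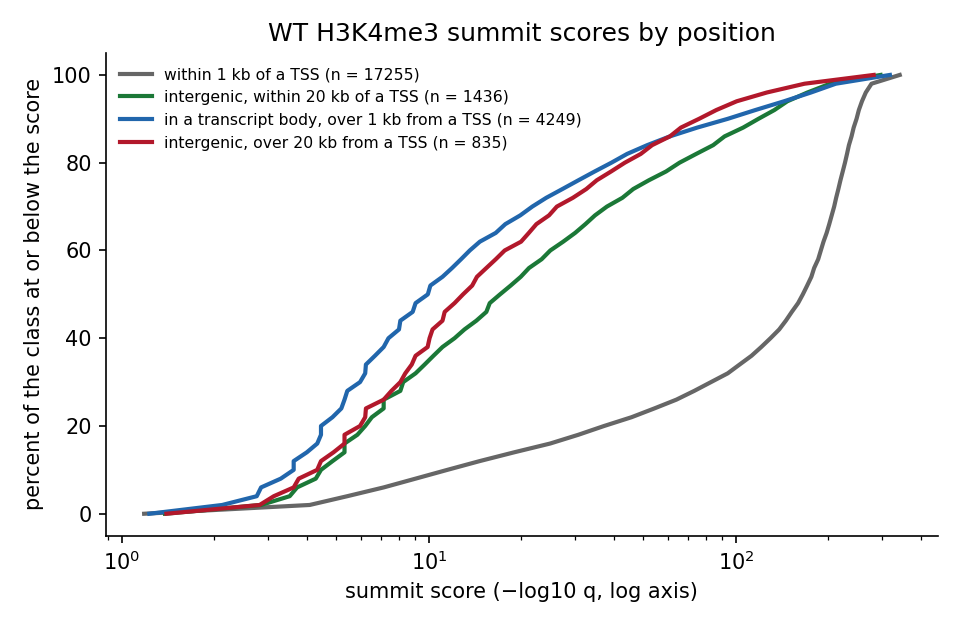
Cumulative distribution of the summit score (x axis, −log10 q, log scale) in 4 classes of WT H3K4me3 summits, with the percent of each class at or below the score on the y axis. The curve of the 835 distal intergenic summits (median 12.9) runs between those of transcript-body summits (9.92) and nearer intergenic summits (17.1), and promoter summits lie far to the right (165).

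The highest scores were found at starts that RefSeq lists and GENCODE M21 does not. Of the 835 summits, 122 (14.6%, interval 12.4 to 17.2) had a RefSeq transcript start or a tRNA gene within 1 kb, whereas such positions cover 0.749% of the bases that meet the rule. The share was not particular to distal summits: it was 19.9% (17.9 to 22.1) at nearer intergenic summits, 15.1% at transcript 3′ ends and 11.4% in transcript bodies. Of the 10 highest-scoring summits 9 did, and of the 51 with a score of at least 100, 22 did (43.1%, 30.5 to 56.7). In the 5 lower score ranges, from under 5 up to 100, the share lay between 10.7% and 15.8%. Another 91 summits were inside a RefSeq transcript, 18 in the 3 kb after one and 130 within 20 kb of a RefSeq start. The remaining 474 (56.8%) were more than 20 kb from a start in both catalogues. A summit with a RefSeq start nearby scored above one without in 59.0% of pairs, and the kinds of start differed widely.

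**Figure D2:**
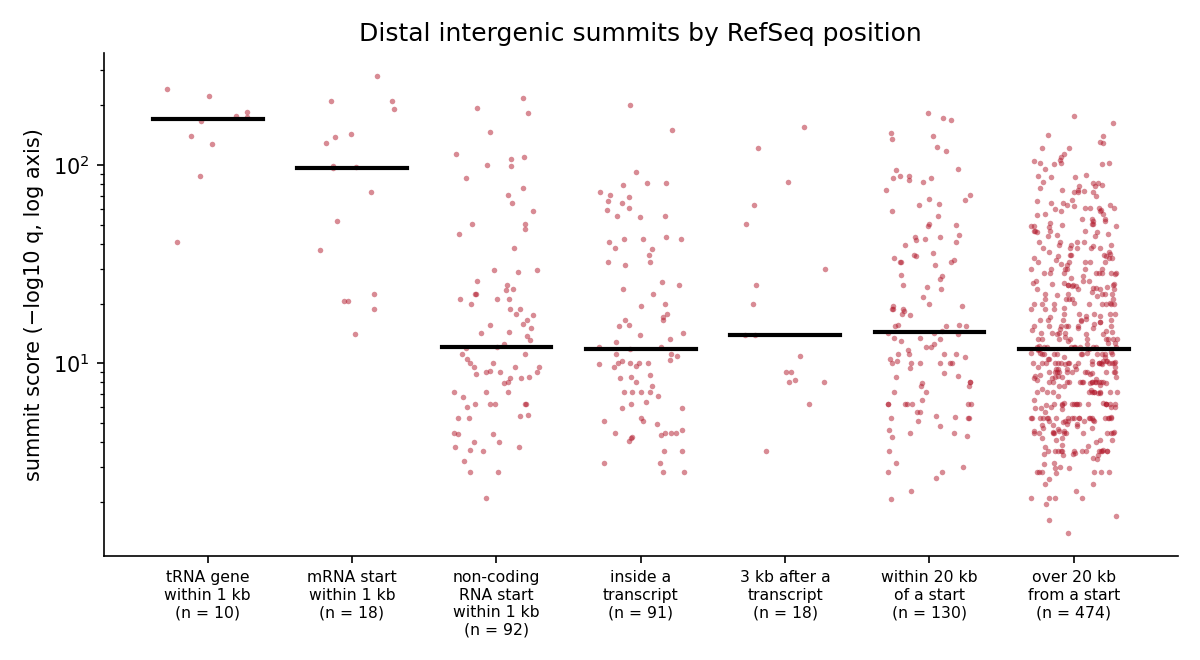
Score (y axis, −log10 q, log scale) of each distal intergenic summit, grouped along the x axis by its position in the RefSeq annotation, with each group's median as a black line. The 10 summits at tRNA genes (median 171) and the 18 at mRNA starts (96.8) stand high, while the other groups shown have medians of 11.8 to 14.4, and 2 summits at pseudogene starts are not drawn.

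Summits at tRNA genes were the strongest group. tRNA genes are transcribed by RNA polymerase III from promoter elements inside the gene, and no tRNA gene of the nucleus is in the GENCODE set used here. The 10 summits had a median score of 171 (interval 87.6 to 223), and 8 of them reached the median of the list. They lay within 1 kb of 11 tRNA genes, out of 55 in the territory that meets the rule (11.6 to 32.4% as an interval). Over chromosomes 1 to 19 and X, 203 of 403 tRNA genes (50.4%) had a summit of any class within 1 kb. The summit never fell on the gene: the distance was 198 to 478 bp, and for 10 of the 11 genes the summit was on the 5′ side. At the glutamate tRNA gene n-TEttc6 on chromosome 14 the score was 243, the second highest of all distal summits, with the summit 302 bp from the gene. The glycine tRNA gene n-TGgcc3 on chromosome 1 had a summit at 389 bp with a score of 223. The second glutamate tRNA gene, n-TEttc7 on chromosome 7, has the same sequence as n-TEttc6 and a summit of 174 at 261 bp.

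The other 7 tRNA summits were on chromosome 13, in a stretch that also holds histone genes. At the alanine tRNA genes n-TAagc16, n-TAagc17, n-TAcgc9 and n-TAagc19 the scores were 185, 140, 167 and 176. The arginine gene n-TRccg3 had the lowest score of the group, 40.7, and the threonine gene n-TTcgt2 had 87.6. A single summit of 128 lay near both the isoleucine gene n-TIaat11 and the threonine gene n-TTagt4, at 379 and 249 bp. Of the 11 genes, 7 contain GTTCGA, letters of the internal B box. Only this exact string was counted, so a gene without it does not necessarily lack the B box. At the same place n-TAagc16 has GTTCAA and n-TGgcc3 has GTTTGA. The sequences of 5 of the 11 genes were chosen after the scores were seen, to show 5 amino acids. They are given 5′ to 3′ on the strand of the gene with GTTCGA in capitals where it occurs.
n-TEttc6, chr14:76152774-76152845, plus strand: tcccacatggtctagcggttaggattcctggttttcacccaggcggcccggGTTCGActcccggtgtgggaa
n-TGgcc3, chr1:74816747-74816817, minus strand: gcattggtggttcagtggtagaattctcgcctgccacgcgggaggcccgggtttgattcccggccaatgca
n-TAagc16, chr13:21222586-21222657, plus strand: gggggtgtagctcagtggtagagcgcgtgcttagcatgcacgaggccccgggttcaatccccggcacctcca
n-TRccg3, chr13:21215458-21215530, minus strand: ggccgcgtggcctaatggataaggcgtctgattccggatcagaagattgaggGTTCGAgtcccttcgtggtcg
n-TTcgt2, chr13:21264580-21264653, plus strand: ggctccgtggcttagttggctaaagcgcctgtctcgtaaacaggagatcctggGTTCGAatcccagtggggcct

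At RefSeq mRNA starts, 18 summits had a median score of 96.8 (22.4 to 144). In 14 cases GENCODE lists the gene symbol but no transcript reaching the summit, so the start nearby is one that RefSeq adds. In 4 cases the symbol is not in GENCODE. Whether these starts are used in the amygdala was not tested. The mRNA behind the start was a predicted model for 10 of the 18. The highest score of all distal summits, 281 on chromosome 5, was 124 bp from the RefSeq start of the zinc finger gene Zfp33b, and exceeded 98.9% of the list. Tln2, which encodes talin-2, a link between integrins and actin, had a summit of 210 at a start 494 bp away, 73777 bp upstream of its nearest GENCODE coding TSS. Dtna, encoding a dystrobrevin of the dystrophin complex, had a summit of 210 at 262 bp from a RefSeq start, 104853 bp upstream of the GENCODE one. Dystrophin itself, Dmd, known to use several promoters, had a summit of 99.02 on the X chromosome, 227 bp from a RefSeq start and 56453 bp from the nearest GENCODE TSS. Summits near starts that only RefSeq lists thus occurred in 2 genes of the same membrane complex, which were noticed after the values were seen.

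The other starts belonged to genes of various roles. Robo2, a receptor for Slit ligands, had a summit of 144 at 423 bp from a RefSeq start. Its relative Robo1, which is not among the 18, had a summit of 200 inside a RefSeq transcript, 1376 bp from the start and 279412 bp upstream of the GENCODE coding TSS. Shank2, a postsynaptic scaffold, had 37.2 at 65 bp, and Cacna1a, the pore subunit of P/Q-type calcium channels, had 20.5 at 293 bp. Scores of 96.2 and 97.4 were found for Rph3al and Sytl5, which encode proteins of Rab-dependent vesicle traffic, at 616 and 140 bp. The transporter genes Slc35f3 and Slc39a10 had 129 and 22.4. Scores over these 18 starts ran from 14.0 at Gm2102 to 281 at Zfp33b.

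Each summit was put in a single group, at a tRNA gene within 1 kb first, then at an mRNA start, then at another start. Summits left for the non-coding RNA group were most of the RefSeq matches but scored no higher than the remaining distal summits. A summit at a tRNA gene or mRNA start is not in this group even where a non-coding start was near. The 92 summits had a median of 12.0 (9.19 to 16.5), against 11.8 (10.3 to 13.2) for the 474 that were far from starts in both catalogues. For 89 of them GENCODE does not list the symbol, and 80 were predicted models, with a median of 10.3 against 37.2 for the other 12. The strongest were Gm33971 (217, at 500 bp, chromosome 16) and Gm51458 (193, at 182 bp, chromosome 7). Of 2488 RefSeq non-coding starts in the territory, 121 (4.86%) had a distal summit within 1 kb, compared with 32 of 192 mRNA starts (16.7%, 12.1 to 22.6) and 2 of 353 pseudogene starts (0.567%). These are counts of starts, not of genes, and starts that share a summit are counted as separate in the interval. The summit lay downstream of the start in 17 of 18 mRNA cases (median +280 bp) and in 73 of 92 non-coding cases (median +247 bp). Summits at GENCODE promoters lay downstream of the nearest TSS in 78.9%, at a median of +163 bp. The position of the summit relative to the start was thus on the same side in most cases of all 3 groups.

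Some summits far from starts in both catalogues were still strong. Their scores reached 177, and 17 of the 474 were at 100 or more. The highest, 177 at position 43283175 of chromosome 7, was 28311 bp from the TSS of the zinc finger gene Zfp715. A summit of 163 at position 8640937 of chromosome 12 lay 33197 bp upstream of Pum2, which encodes a translational repressor, in a CpG-island-like window. On chromosome 18, a summit of 129 lay 26028 bp downstream of the start of Egr1, an immediate early transcription factor gene, and one of 140 lay 24294 bp upstream of Smad7, an inhibitor of TGF-beta signalling. These 4 summits had GC contents of 52.9, 61.1, 65.1 and 71.3%. Apart from the Egr1 one, they were chosen after their scores were seen.

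Distal summits thinned out with distance. The bases that meet the rule make up 739 Mb, or 28.9% of the sequence of these chromosomes, and held 1.13 summits per Mb (1.05 to 1.21), whereas the remaining bases held 12.8. The density was 2.06 per Mb (1.84 to 2.31) at 20 to 30 kb from a TSS and 1.38 at 30 to 50 kb. It fell to 0.895 at 50 to 100 kb, 0.435 at 100 to 200 kb and 0.203 (0.0930 to 0.386) beyond 200 kb, where only 9 summits lay. The median distance was 36055 bp, with a longest of 339517 bp. Scores did not follow the density: the medians of the 5 ranges were between 11.2 and 15.1 with overlapping intervals. The 5 farthest summits scored 3.77, 34.0, 8.07, 11.2 and 24.9, and the farthest by GENCODE was 140 bp from a RefSeq start, that of Gm46645.

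Among chromosomes, the X had the lowest density at 0.457 per Mb (0.309 to 0.653) and chromosome 13 the highest at 1.70 (1.28 to 2.22). The interval of the X lay below those of 15 of the 19 autosomes. Males carry a single X, and uniquely mapped reads depend on repeats, and the part of either in this density was not tested. The X held 790 summits of all classes together, and the distal ones were 3.80% of these, against 3.46% over the list. Chromosome 1 was next lowest at 0.781 (0.578 to 1.03). By count, chromosome 2 had most, 69, and chromosome 19 fewest, 14.

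**Figure D3:**
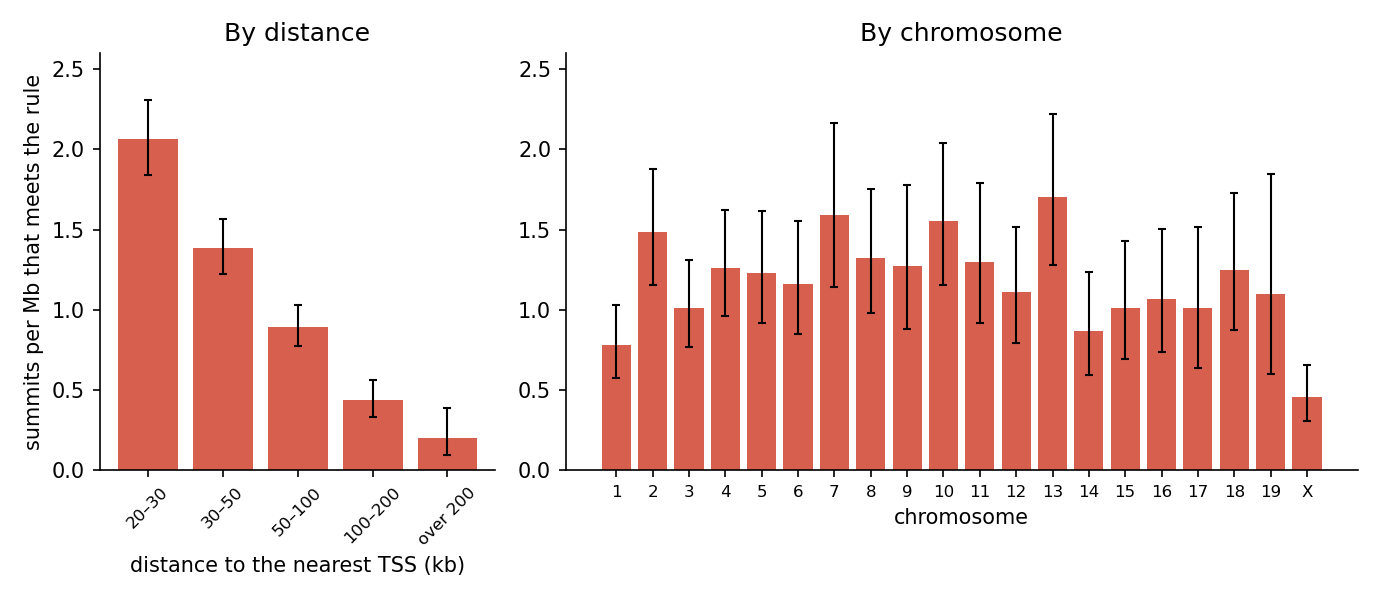
Distal intergenic summits per Mb of sequence that meets the rule (y axis), by distance to the nearest TSS in kb (left) and by chromosome (right), with exact 95% Poisson intervals as error bars. The density falls from 2.06 per Mb at 20 to 30 kb to 0.203 beyond 200 kb, and is lowest on the X chromosome (0.457).

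The summits picked out GC-rich and CpG-rich sequence within an AT-rich territory. Within 250 bp on either side of the summit the median GC content was 50.1%, with quartiles of 46.1 and 54.7%, against 39.8% over all bases that meet the rule. The median ratio of observed to expected CpGs in these windows was 0.481. For the territory as a whole a single ratio of 0.161 was computed, which is not a median of windows, so the measures differ. CpG-island-like windows, with at least 50% GC and a ratio of at least 0.6, were found at 127 of the 835 summits (15.2%, 12.9 to 17.8) and in 0.222% of all windows of that size in the territory. The share was 20.8% (18.8 to 23.0) at nearer intergenic summits and 60.8% at promoter summits. By score, the share at distal summits lay between 8.26% (4.55 to 14.5) and 11.9% (7.74 to 17.8) in the ranges below 50, with overlapping intervals. It was higher only above that, at 29.5% (21.2 to 39.3) from 50 to 100 and 51.0% (37.7 to 64.1) at 100 or more. It fell with distance, from 20.3% at 20 to 30 kb to 5.17% at 100 to 200 kb, and none of the 9 summits beyond 200 kb had one.

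Summits with and without a RefSeq start had similar CpG content. Both rose around the summit, to 3.43 CpGs per 100 bp with a start and 3.63 without, from about 1 at 2 kb on either side. Promoter summits reached 6.15. Island-like shares were 17.2% (11.5 to 24.9) with a RefSeq start and 14.9% (12.4 to 17.7) without. Of the 10 windows at the strong tRNA summits, 1 qualified as CpG-island-like. Their median GC was 47.6%, under the limit of 50%. Their median ratio of observed to expected CpGs was 0.594, just under the limit of 0.6 and above the 0.481 of all distal summits. At mRNA starts 6 of 18 qualified.

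**Figure D4:**
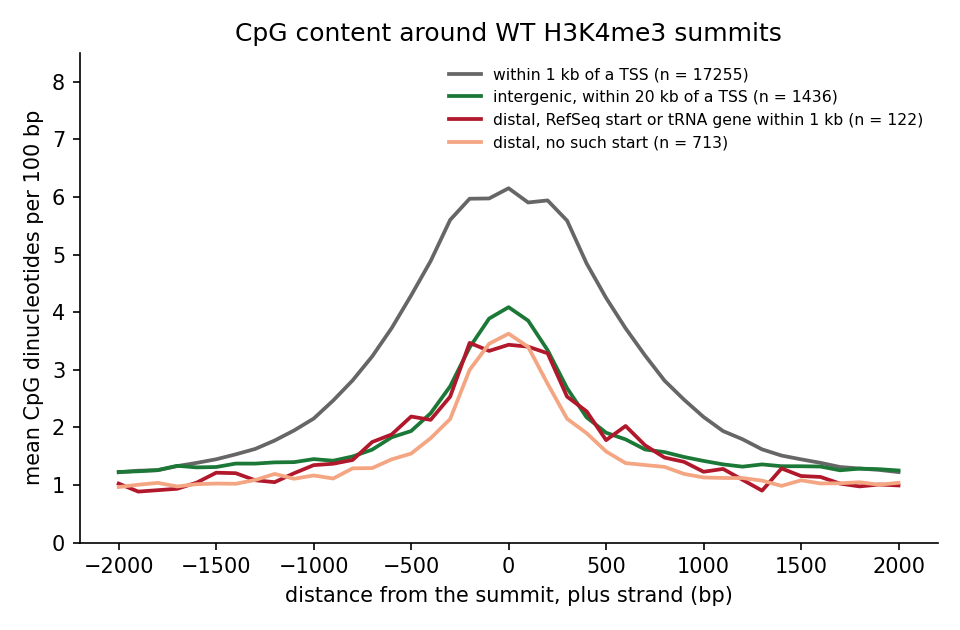
Mean number of CpG dinucleotides per 100 bp (y axis) against the distance from the summit in bp (x axis) for distal intergenic summits with and without a RefSeq start or tRNA gene within 1 kb, for nearer intergenic summits and for promoter summits. All 4 curves are high around the summit, where they stand at 6.15 for promoters and between 3.43 and 4.09 for the other 3.

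Repeats were rare under the summits. The summit base was repeat-masked in 60 of the 835 (7.19%, 5.62 to 9.14), whereas 40.3% of the territory is masked. The same share was 8.64% at nearer intergenic summits and 4.21% at promoters. The list rests on uniquely mapped reads, and the part of mappability in this was not tested. When each window was aligned to the reference, 821 (98.3%) matched only themselves at 95% identity over 80% of the window, 3 gave no match and 11 matched elsewhere too. The most repeated, on chromosome 10 near Ust, had 59 matches and a score of 5.31. Among the 10 highest scores the one at the RefSeq gene Gm51425 (191, chromosome 17) had 6 matches, all on its own chromosome.

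Most distal summits stood alone. Another summit of any class lay within 10 kb of 140 (16.8%, 14.4 to 19.5). The rule itself keeps every promoter summit farther away than that, so this share is not set beside those of other classes. Joining members less than 10 kb apart left 715 single ones, 46 pairs, 8 groups of 3 and 1 group of 4. The group of 4 spanned 18373 bp on chromosome 6, nearest to Pdia4 among coding genes, with scores of 7.12, 55.004, 10.9 and 9.05. Its windows had 15, 2, 14 and 11 matches in the reference, all on chromosome 6. The next group, of 3 tRNA summits on chromosome 13, had scores of 87.6 to 176 and spanned 10583 bp.

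The coding gene with most distal summits as its nearest was Snrpn, with 10 over 821 kb of chromosome 7. This imprinted stretch, expressed from the paternal copy in neurons, holds the long host RNA Snhg14. The scores ran from 7.12 to 79.5 with a median of 41.4, above that of all distal summits. Of the 10, 1 was at a RefSeq start (Snrpn, 267 bp, score 20.6), 2 others were inside RefSeq transcripts of Snhg14 and Snrpn, 5 were inside A230006K03Rik, and 2 were over 20 kb from a RefSeq start. Their GC content was low, 37.3 to 44.3%, and none was CpG-island-like. The Snrpn stretch was chosen after the counts were seen. Vrk1 followed with 7 summits and a median score of 8.48. In all, 659 of 21646 protein-coding genes (3.04%) were the nearest of at least 1 distal summit, and 541 of these had just 1.

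Genes of the forebrain transcription factor list were the nearest coding gene of a distal summit in 13 of 64 cases (20.3%), but these genes also border large intergenic stretches. Such summits were 16 of the 835 (1.92%, 1.18 to 3.09), and the same genes were the nearest for 2.05% of the territory. Near Dlx2, a homeobox gene of GABAergic neurons, summits scored 84.3 at 34498 bp, 59.99 at 82749 bp and 16.5 at 109354 bp upstream, the first 2 in CpG-island-like windows. Near Neurod6, a factor of excitatory neurons, a summit of 23.6 lay at 63152 bp. Of 34 activity-regulated genes measured, 3 were the nearest gene of 5 summits (0.599%, 0.256 to 1.39, of the summits and 0.391% of the territory). They include the summit of 129 near Egr1, one of 81.1 at 118706 bp upstream of Klf4 and one of 16.5 at 106552 bp from Trib1. For both lists the share of the territory lay inside the interval of the share of summits.

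For 3 lists it did not. Axon guidance and cell adhesion genes were nearest to 10 summits (1.20%, 0.652 to 2.19) but to 7.55% of the territory. Counted by gene, 8 of the 77 (10.4%) were the nearest of a distal summit, against 3.04% of all protein-coding genes. The territory share weighs all distances alike, whereas the density of distal summits fell with distance. The part of distance in the shares of these lists was not tested. By nearest GENCODE coding TSS, the measure used for these lists, the Robo2 summit above counts for Lipi and is not among the 10. Besides Robo1, the highest-scoring of them were a summit of 53.5 at 456118 bp from Cdh10, a cadherin gene, and one of 29.9 at 510849 bp from the ephrin receptor gene Epha4. Neurotransmitter receptors and channels were nearest to a single summit (0.120%, 0.0211 to 0.675) and to 2.16% of the territory, namely one of 5.31 at 64038 bp from the opioid receptor gene Oprm1. The summit at the RefSeq start of Cacna1a is not counted here, because its nearest GENCODE coding TSS is that of Ccdc130. In the other direction, oligodendrocyte genes were nearest to 6 summits (0.719%, 0.330 to 1.56) and to 0.131% of the territory. Of these 6, 3 were 1 group within 5106 bp near Bcas1, which the interval counts as separate. The highest-scoring lay 136737 bp from Zfp536 (42.1) and 154432 bp from Pdgfra (10.1), the receptor gene of oligodendrocyte precursors. Next was one of 8.81 at 87424 bp from Bcas1, a gene of differentiating oligodendrocytes. The Zfp536 summit was inside the RefSeq transcript Gm30483, and this Bcas1 summit lay 140 bp from the non-coding start of Gm34542. Astrocyte genes had 2 summits, of 12.1 at 187803 bp from Fgfr2 and 5.38 at 301673 bp from Sox9 (0.240%, 0.0657 to 0.869, against 0.216% of the territory). Summits were 56.4% (53.0 to 59.7) upstream of the nearest coding TSS, as were 58.0% of the positions in the territory.

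A few summits coincided with enhancers that RefSeq lists. Of 1019 such enhancers on these chromosomes, 620 are elements of the VISTA collection, which are tested by reporter expression in transgenic embryos. Within 1 kb of a RefSeq enhancer, 15 of them VISTA elements, lay 16 distal summits (1.92%), and 14 of the summits were inside it, whereas such positions are 0.0873% of the territory. Their median score was 15.9. The highest was the summit of 223 at the tRNA gene n-TGgcc3, inside an element 23843 bp from the TSS of Wnt10a. Others were 82.4 at 96505 bp from Zbtb10, 81.1 at 30478 bp from Actg1 and 48.7 at 172782 bp from Sorl1, which encodes a sorting receptor. The remaining 12 were between 4.54 and 37.9. Other classes of summits were not set beside these enhancers, so the excess over the territory may not be particular to distal ones.

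Short motifs were counted on both strands within 250 bp on either side of the summit. These windows are richer in GC than the territory, and the part of base composition in the shares below was not tested. GGGCGG, bound by SP and KLF factors, was in 252 windows (30.2%, 27.2 to 33.4), against 2.81% of all windows in the territory and 59.7% at promoter summits. The ETS motif CCGGAAG was in 6.71% (5.20 to 8.61), against 0.990% of the territory and 12.7% at promoters. The NRF1 motif GCGCATGC was in 31 windows (3.71%, 2.63 to 5.22), against 0.323% of the territory and 2.35% at promoters, the latter below the interval of the distal summits. Nearer intergenic summits, at 3.41%, lay inside it. In 2 of the 31 every match was in masked bases. CAGCTG, an E-box, was in 31.0% (28.0 to 34.2), above the promoter share of 27.1% and the 14.1% of the territory and close to the 32.6% of nearer intergenic summits. AGGGGGC, part of the CTCF site, was in 12.5%, against 2.81% of the territory, 14.2% of nearer intergenic summits and 17.5% of promoters.

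Motifs rich in A and T went the other way relative to the territory. TAATTA, read by homeodomain proteins, was in 13.1% (10.9 to 15.5) of distal windows, 19.2% of the territory and 3.89% of promoters. ATTGTT, a SOX motif, was in 25.1%, against 37.1 and 9.38%, and TATAAA, the TATA box, was in 20.4%, against 46.1 and 8.36%. CCAAT, the NFY motif, was in 45.7%, against 62.0 and 38.0%. At nearer intergenic summits these 4 motifs were in 10.9, 17.3, 15.1 and 47.5%, and GGGCGG in 38.9%. The second E-box, CATATG, was in 5.99%, against 16.9 and 2.66%. The AP-1 motif TGANTCA was in 11.7% (9.73 to 14.1), against 14.5% of the territory and 7.38% of promoters. CTAAAAATA, a MEF2 motif, GTTGCCATG, an RFX motif, and the cyclic AMP response element TGACGTCA were in 10 windows each (1.20%, 0.652 to 2.19). For these 3 the territory had 1.42, 0.463 and 0.214%. Nearer intergenic summits had 1.53, 1.32 and 1.60%, and promoter summits 0.452, 0.817 and 1.46%. The single window with both the last motif and that of NRF1 is shown because they abut there, 235 bp from a summit of 74.8 near Rgs6, a regulator of G protein signalling. Both motifs are in capitals (plus strand, GRCm38).
chr12:82470700-82470900: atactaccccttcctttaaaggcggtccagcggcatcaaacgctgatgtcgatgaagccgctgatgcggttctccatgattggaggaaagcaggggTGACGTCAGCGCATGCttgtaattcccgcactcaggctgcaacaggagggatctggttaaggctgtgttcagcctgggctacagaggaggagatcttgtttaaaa

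**Figure D5:**
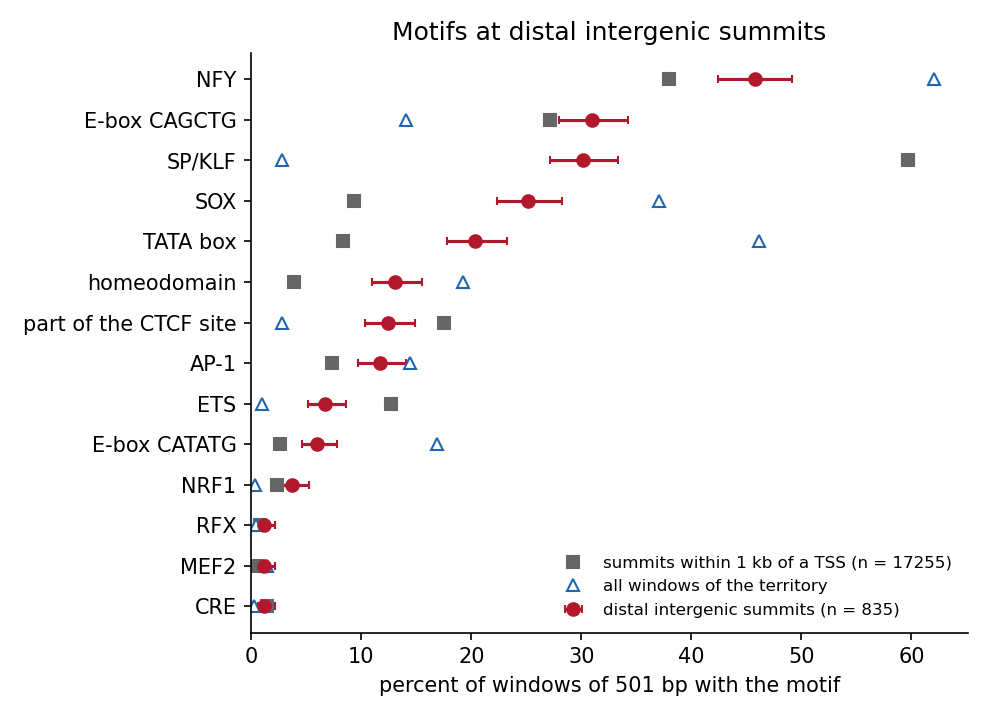
Percent of windows (250 bp on either side of the centre) that hold each of 14 motifs on either strand (x axis) at distal intergenic summits (circles with 95% Wilson intervals), at promoter summits (squares) and over all windows of the territory that meets the rule (triangles). GGGCGG (SP/KLF) is at 30.2% at distal summits, 59.7% at promoters and 2.81% in the territory, and the TATA box is at 20.4, 8.36 and 46.1%.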

How the data were processed

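Reads were mapped to mm10 by the authors using Bowtie, and the authors called peaks with MACS2 2.1.0.20140616 against the input and deposited 1 list for both WT mice. Each line gives a summit of 1 bp and a score, which the deposited list does not name and which was read as −log10 of the q-value. Sequencing depth per sample is not given by the list, so intervals cover counting error only. No replicate spread exists, and no p-value is given.

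Summits were placed with GENCODE M21 on GRCm38 (mm10) and then with the RefSeq annotation of GRCm38.p6. Of the 24162 lines, 7 on chromosome Y and 23 on other sequences were left out. Promoter summits were those at most 1 kb from a TSS. Sequence, repeat masking and motifs were read within 250 bp on either side of the summit, and the background was every base or tiled window that meets the rule. For gene lists it was a point every 1 kb. Copies were counted with BLAST 2.17.0, seeded outside masked bases. Classification and intervals were tested on simulated data. Python 3.11.15, numpy 2.4.6, scipy 1.17.1, pandas 2.3.3, pysam 0.24.0, samtools 1.23.1 and matplotlib 3.10.9 were used.

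Named members are the 10 highest-scoring, the 5 farthest from a TSS, the largest group, up to 3 per gene list and those at the limit. Others were chosen after their values were seen. The members and lists were chosen with earlier results of these data known. Columns of per-sample values left unmatched numbered 0.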

Additional observations from a re-analysis of the deposited data

How the results depend on the processing

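No paired analysis was possible because the list pools both WT mice, and for the same reason leaving out each mouse in turn was not run. The number of distal summits, 835, became 1408 over 10 kb from a TSS, 268 over 50 kb, 2542 with protein-coding transcripts only, 474 with RefSeq starts and bodies added, 514 with scores of at least 10 and 47 with scores at or above the median of the list. The median score became 15.4 with protein-coding transcripts only, 25.4 with scores of at least 10 and 144 at or above the median of the list. The CpG-island-like share of 15.2% became 10.8% over 50 kb, 21.5% with protein-coding transcripts only, 12.4% with RefSeq added, 18.3% with scores of at least 10, 48.9% at or above the median of the list, 8.98% with 500 bp on either side of the summit and 9.46% with stricter limits. The repeat-masked share of 7.19% became 2.63% when most of the window had to be masked and 4.26% at or above the median of the list. The share with a neighbour, 16.8%, became 19.8% over 10 kb, 24.98% with protein-coding transcripts only, 12.5% with scores of at least 10, 4.26% at or above the median of the list, 10.7% with summits within 1 kb joined, 11.6% for neighbours within 5 kb and 23.4% within 20 kb. Each of these alternatives changes which summits, windows or distances are counted. The other 25 of 50 values stayed within 1.5 times the main count or inside the interval of the main share or median, and the median score was among them with RefSeq added (11.8). Limits are the single pooled list, a depth behind each summit that the list does not give, and summits without peak widths, so a wide peak can be placed by 1 base outside the feature it covers.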
